A study of Mus musculus with 6 samples.

Results

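The core circadian clock genes were followed in gastrocnemius muscle, a calf muscle, of mice that lack the kinase TAK1 in skeletal muscle. The set was chosen by name, with earlier results of these data known. It held 10 genes: Arntl (also called Bmal1), Clock, Per1, Per2, Per3, Cry1, Cry2, Nr1d1, Nr1d2 and Dbp. Of these, 9 had a probe set annotated to that gene alone and were measured, among 22180 genes in all. Per2 shared its probe set with another gene, so no value is given for it. The KO group was 3 mice with a muscle-specific TAK1 knockout, sampled 3 weeks after deletion, and the Control group was 3 littermates with a floxed TAK1 gene. Each mouse gave 1 Affymetrix expression array of total RNA from whole muscle. The driver that deletes the gene, the treatment of the Control mice, age, sex and the time of day of tissue collection are not stated in the labels. In such a model the gene stays intact outside muscle fibres, and those cells contribute RNA to the sample.

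The circadian clock is a feedback loop of transcription that runs with a period of about a day in nearly every cell, skeletal muscle fibres included. ARNTL and CLOCK bind E-box sequences as a pair and drive the Per and Cry genes, the nuclear receptors Nr1d1 and Nr1d2 (REV-ERB alpha and beta) and the output factor Dbp. PER and CRY proteins then inhibit that pair, while the REV-ERB receptors silence Arntl through ROR elements, so that Arntl peaks at about the opposite time of day from Nr1d1 and Dbp. In muscle the loop sets daily rhythms of glucose and lipid use. The level of a clock gene that is rhythmic in a tissue depends on the hour at which the tissue was taken.

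Promoter windows show where these control sequences lie in the members. RefSeq windows of assembly GRCm38.p6, which run from 250 bases before to 50 after an annotated start, were at hand for all 9 measured members (13 windows). Both strands were searched for the E-box CACGTG, the D-box TTATGTAA or TTACGTAA (bound by DBP and its relatives) and the core of the ROR element, TAGGTCA or TGGGTCA. The E-box stood in windows of 2 members, Per1 and Cry1, the D-box in 1, Per3, and the ROR core in 1, Arntl. Counted by window, these were 2, 1 and 1 of the 13. Of all 32851 promoter windows, 7.15% held the E-box, 1.06% the D-box and 6.45% the ROR core. Such a match is a description of letters, and functional sites of these genes can lie outside the windows. Of 10 other clock factors with windows, 4 held the E-box (Bhlhe41, Ciart, Cipc and Tef) and 1 the ROR core (Nfil3). Counted by window, these were 5 and 1 of their 13. The windows of Arntl, Per3, Cry1 and Per1 follow, with that of Nfil3, a repressor outside the set. Nfil3, whose level is described with that of Arntl, was picked once its values had been seen. Any link of the ROR core to these levels was not tested. The windows are written 5′ to 3′ on the gene's strand with the matched motif in capitals. In Nfil3 the capitals are the ROR core TAGGTCA read on the opposite strand.
Arntl, chr7:113207261-113207560, plus strand, ROR core in capitals: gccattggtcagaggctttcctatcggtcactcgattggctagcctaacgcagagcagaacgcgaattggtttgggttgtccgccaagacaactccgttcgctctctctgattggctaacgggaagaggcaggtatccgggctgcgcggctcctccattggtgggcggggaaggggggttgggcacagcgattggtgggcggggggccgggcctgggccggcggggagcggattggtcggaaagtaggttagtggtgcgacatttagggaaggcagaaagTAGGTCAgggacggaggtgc
Nfil3, chr13:52980990-52981289, minus strand, ROR core in capitals: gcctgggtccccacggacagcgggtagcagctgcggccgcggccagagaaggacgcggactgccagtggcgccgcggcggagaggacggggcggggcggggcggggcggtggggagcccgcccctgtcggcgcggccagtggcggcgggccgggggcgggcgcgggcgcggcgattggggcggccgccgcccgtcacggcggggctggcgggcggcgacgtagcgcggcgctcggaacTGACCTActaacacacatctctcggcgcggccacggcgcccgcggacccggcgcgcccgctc
Per3, chr4:151044616-151044915, minus strand, D-boxes in capitals: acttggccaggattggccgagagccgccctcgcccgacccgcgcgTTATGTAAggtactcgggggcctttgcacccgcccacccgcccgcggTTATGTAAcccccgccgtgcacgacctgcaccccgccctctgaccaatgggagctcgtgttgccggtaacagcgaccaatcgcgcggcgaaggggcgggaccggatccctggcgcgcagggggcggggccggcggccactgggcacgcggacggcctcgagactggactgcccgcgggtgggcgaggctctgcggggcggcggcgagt
Cry1, chr10:85185005-85185304, minus strand, E-box in capitals: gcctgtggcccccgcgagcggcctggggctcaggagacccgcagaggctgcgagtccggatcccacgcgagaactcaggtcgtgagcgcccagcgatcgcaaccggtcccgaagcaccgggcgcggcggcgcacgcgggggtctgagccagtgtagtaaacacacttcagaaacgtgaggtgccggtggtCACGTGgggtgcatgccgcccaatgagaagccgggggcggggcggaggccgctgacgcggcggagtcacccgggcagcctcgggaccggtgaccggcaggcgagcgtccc
Per1, chr11:69098699-69098998, plus strand, E-box in capitals: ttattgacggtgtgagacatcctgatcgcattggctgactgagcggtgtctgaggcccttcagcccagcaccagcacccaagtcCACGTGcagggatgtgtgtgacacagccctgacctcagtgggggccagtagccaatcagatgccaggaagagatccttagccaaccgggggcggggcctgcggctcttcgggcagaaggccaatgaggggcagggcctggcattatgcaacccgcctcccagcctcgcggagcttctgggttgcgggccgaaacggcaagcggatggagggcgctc

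Distances are from the annotated start of the window shown. In Arntl the ROR core began 30 bases after the start, and in Nfil3 it began 12 bases before it. The D-boxes of Per3 began 205 and 158 bases before the start. The E-box began 60 bases before the start of Cry1 and 166 bases before that of Per1. Arntl and Per1 each had another window, at a different annotated start, that held none of the motifs.

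The arrays were similar in their distributions, with medians of 5.78 to 5.84 on the log2 scale, and the lowest Pearson correlation across genes between any 2 arrays was 0.985. Map3k7, which encodes TAK1, had log2 levels of 8.20, 8.28 and 8.17 in KO muscle, against 8.47, 8.32 and 8.42 in Control muscle. Its mean was 12.1% lower in KO muscle (adjusted p = 0.686, limma), and the deleted exons are not given, so the label was not settled by this level. Skeletal muscle fibre markers were present at high levels, and all 9 measured lay above the level taken as background. That level, 5.85, was the 95th percentile of 1394 olfactory and vomeronasal receptor genes. All 9 clock members lay above it, the lowest group mean being 7.25 for Cry1 in KO muscle.

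The comparison of KO with Control muscle asked whether loss of TAK1 goes with a different level of the clock transcripts. No member passed the test. All 9 had a lower mean in KO muscle. Their log2 fold changes lay between −0.51 for Nr1d1 and −0.05 for Per1, with a median of −0.11. The median of all genes was −0.0003, and 50.1% of genes had a lower mean in KO muscle. The 9 directions are not independent, since all come from the same 6 arrays, and Control 1 held the highest value of 5 members. Without Control 1 the members' median was −0.07, and the log2 fold change of Arntl was 0.14. Adjusted p ran from 0.599 to 0.964 (limma, Benjamini-Hochberg over all genes, threshold 0.05), so 0 of 9 members were called, where 0.0947% of all genes were called and 0.0541% were called lower. At an unadjusted p under 0.05, 1 member passed, Nr1d1, where 8.04% of all genes did. In all 9 members the KO and Control values overlapped, while the groups did not overlap in 13.4% of all genes, 6.65% being lower and 6.74% higher in KO muscle. In bulk muscle, fewer cells of a type and less RNA per cell cannot be told apart.

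**Figure D1:**
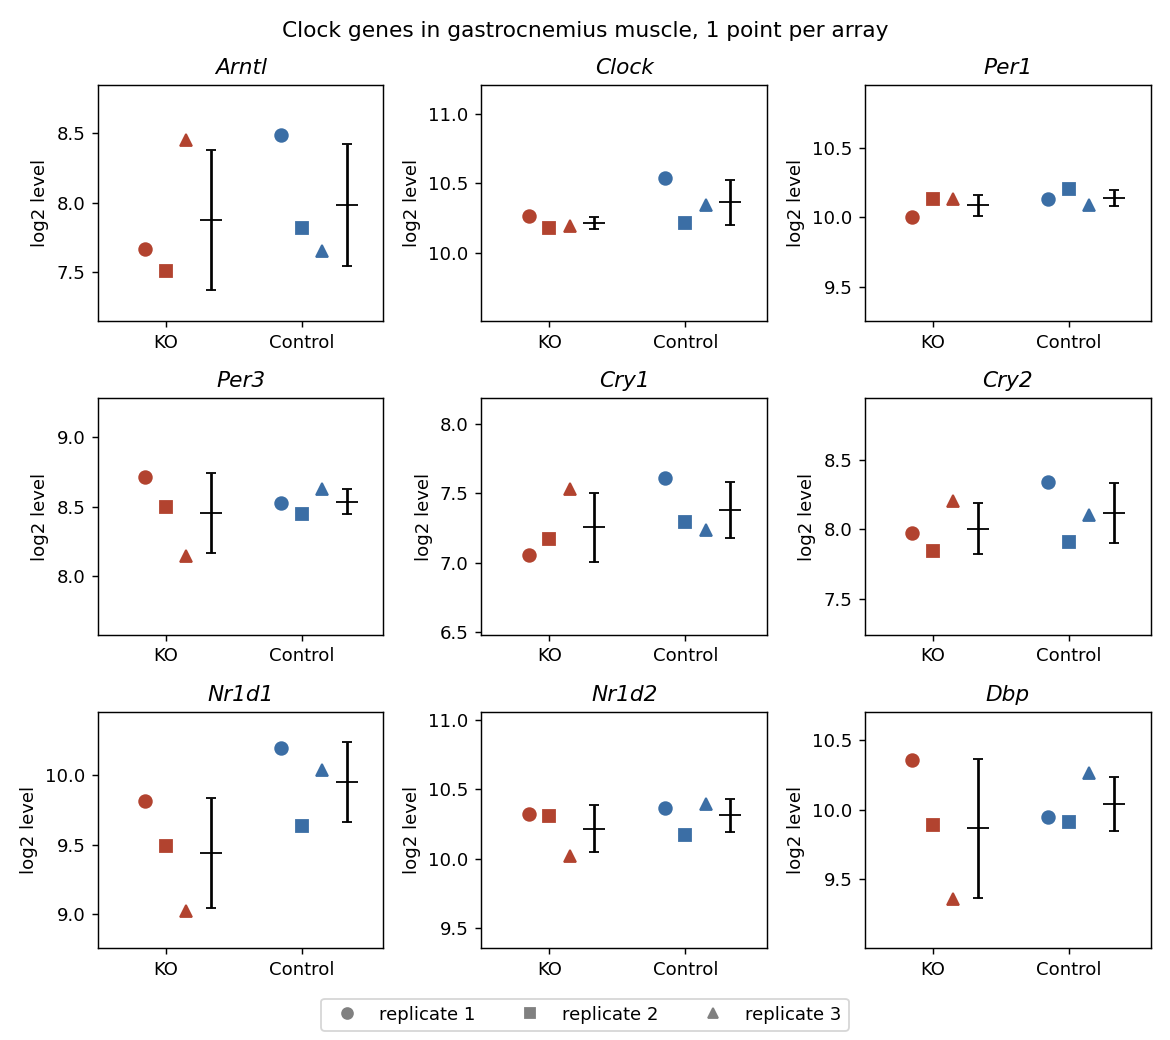
Log2 level (vertical axis) of the 9 measured clock genes in each array, with 3 KO arrays (red) left of 3 Control arrays (blue). Symbols mark the replicate number, and black bars give the mean ± SD of each group. The groups overlap in every panel, and the panels share the same span of log2 units.

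Among the activators, Arntl had log2 levels of 7.67, 7.51 and 8.45 in KO muscle, against 8.48, 7.81 and 7.65 in Control muscle. One array of each group, KO 3 and Control 1, was high, and the other 4 arrays lay within 0.31 of each other. The mean was 7.88 ± 0.50 in KO and 7.98 ± 0.44 in Control muscle (SD, n = 3 each), a log2 fold change of −0.11 with a 95% confidence interval of −0.74 to 0.53. It was −0.40 without KO 3 and 0.14 without Control 1. Clock, the partner of ARNTL, had log2 levels of 10.26, 10.18 and 10.20 in KO muscle, against 10.54, 10.21 and 10.35 in Control muscle. The KO arrays were close together, and 1 of them lay above the lowest Control array. The log2 fold change was −0.15 (interval −0.40 to 0.10, adjusted p = 0.803), and without Control 1, its highest array, it was −0.07.

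Among the inhibitors of that pair, Per1 was the steadiest member. It had log2 levels of 10.002, 10.13 and 10.13 in KO muscle, against 10.14, 10.20 and 10.09 in Control muscle. All 6 arrays lay within 0.20 of each other, and the log2 fold change was −0.05 (interval −0.27 to 0.16). Per3, the family member least needed for rhythm in mice, had log2 levels of 8.71, 8.50 and 8.15 in KO muscle, against 8.53, 8.45 and 8.63 in Control muscle. The highest and the lowest of the 6 values were both KO arrays. The log2 fold change was −0.08 (interval −0.42 to 0.25), and without KO 3 it was 0.07.

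The cryptochromes, which carry the strongest repression in the loop, had their highest values in the same arrays as Arntl. Cry1 had log2 levels of 7.06, 7.17 and 7.53 in KO muscle, against 7.61, 7.29 and 7.23 in Control muscle. KO 3 and Control 1 were again the highest of their groups, and the log2 fold change was −0.12 (interval −0.47 to 0.23). Cry2 had log2 levels of 7.97, 7.84 and 8.20 in KO muscle, against 8.34, 7.91 and 8.10 in Control muscle. KO 3 and Control 1 were the highest here too, with a log2 fold change of −0.11 (interval −0.44 to 0.21). Without Control 1 the difference was −0.01 for Cry1 and −0.001 for Cry2.

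Nr1d1, the REV-ERB alpha receptor that represses Arntl, had the largest difference of the 9. It had log2 levels of 9.81, 9.49 and 9.02 in KO muscle, against 10.19, 9.63 and 10.03 in Control muscle. KO 3 and KO 2 lay below all Control arrays, and KO 1 lay above Control 2. The mean was 9.44 ± 0.40 in KO and 9.95 ± 0.29 in Control muscle (SD, n = 3 each), which is 29.9% lower in KO muscle (log2 fold change −0.51, SE 0.21, interval −0.996 to −0.028). The unadjusted p was 0.0406 and the adjusted p 0.599 (limma), so the difference was not a call. Without KO 3 the log2 fold change was −0.30 (adjusted p = 0.778). Nr1d2, the beta receptor, which shares its DNA sites, had log2 levels of 10.32, 10.30 and 10.02 in KO muscle, against 10.36, 10.17 and 10.40 in Control muscle. KO 3 was the lowest of the 6 arrays, and the log2 fold change of −0.10 (interval −0.37 to 0.18) became 0.001 without it.

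Dbp, a PAR bZIP factor that passes the rhythm on to output genes, had log2 levels of 10.35, 9.89 and 9.36 in KO muscle, against 9.95, 9.91 and 10.27 in Control muscle. The highest and the lowest of the 6 values were both KO arrays. The mean was 9.87 ± 0.50 in KO and 10.04 ± 0.19 in Control muscle (SD, n = 3 each), with a log2 fold change of −0.17 (interval −0.70 to 0.35). Without KO 3 it was 0.08. The intervals of the 9 members extended 0.22 to 0.64 on either side of the difference, so with 3 arrays a group a smaller difference could not be told from 0. No interval reached a fold change of 2-fold lower, and the lowest bound, that of Nr1d1, was a fold of 0.501 of KO over Control.

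**Figure D2:**
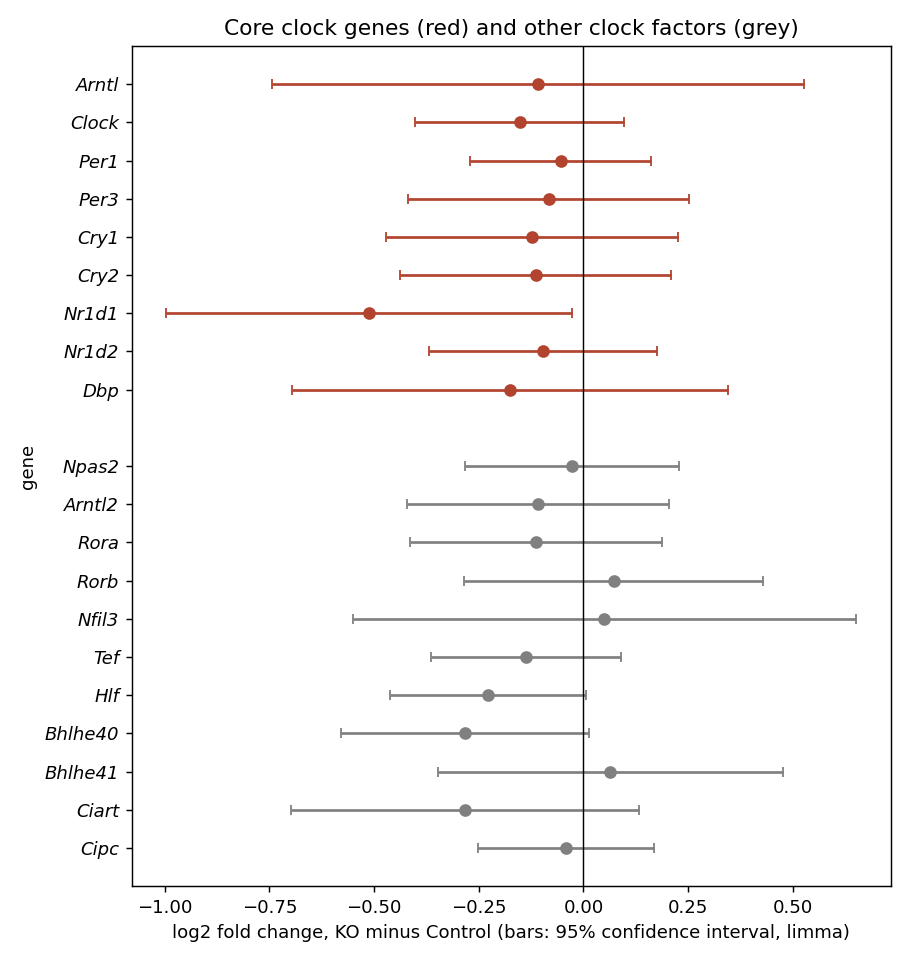
Log2 fold change of KO minus Control (horizontal axis) with its 95% confidence interval from limma, for the 9 core clock genes (red) and 11 other clock factors (grey). Of the core genes, Nr1d1 alone has an interval (−0.996 to −0.028) that leaves out 0, and the other 8 intervals include it.

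The members varied between mice of one group to very different extents. The within-group SD, pooled over both groups, was 0.47 for Arntl, larger than in 98.6% of all genes. It was 0.38 for Dbp (96.7% of genes were lower) and 0.35 for Nr1d1 (95.3%). At the other end, it was 0.12 for Clock (34.9%) and 0.07 for Per1 (7.95%). The median of the 9 members was 0.21, and that of all genes was 0.15. In 7 of the 9 members the within-group SD was larger than the difference between the groups, the exceptions being Clock and Nr1d1. The SD was larger among KO than among Control arrays in 7 members, and larger among Control arrays in 2, Clock and Cry2. The matching share of all genes was not counted, so this is not read as a trait of the clock genes.

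**Figure D3:**
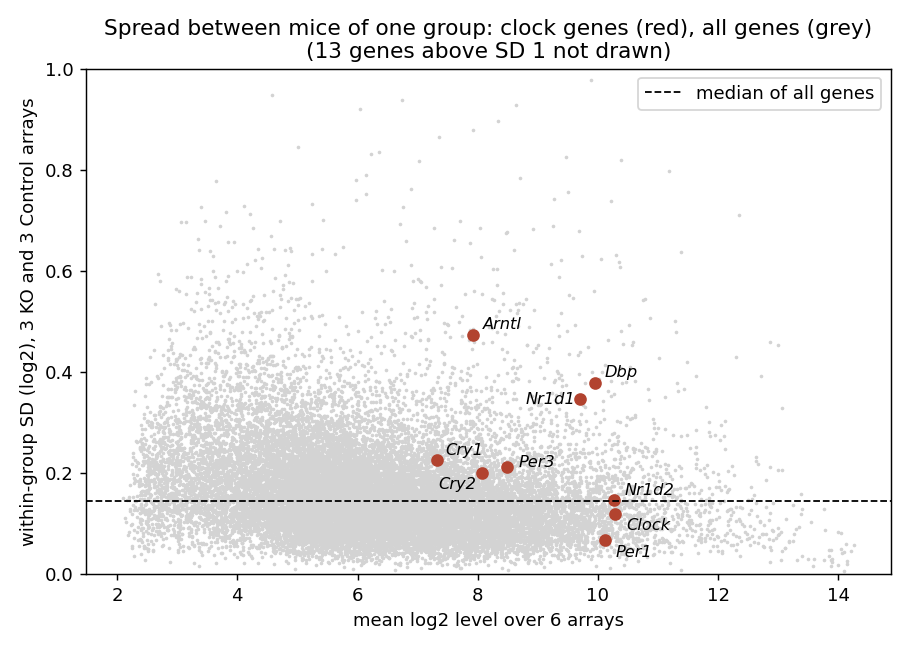
Within-group SD of log2 levels (vertical axis, pooled over 3 KO and 3 Control arrays) against the mean log2 level over 6 arrays (horizontal axis) for all genes (grey) and the 9 clock genes (red). Arntl, Dbp and Nr1d1 lie far above the dashed median of all genes (0.15), while Per1 (0.07) and Clock (0.12) lie below it.

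KO 3 held high values of some members and low values of others. It was the highest KO array for Arntl, Cry1, Cry2 and, by a narrow margin, Per1, and the lowest for Per3, Nr1d1, Nr1d2 and Dbp. Against the mean of KO 1 and KO 2, KO 3 was 0.86 higher for Arntl and 0.42 higher for Cry1, and lower for Dbp (−0.76), Nr1d1 (−0.63) and Per3 (−0.46), on the log2 scale. Taking each gene's deviation from its own mean over the 6 arrays, Dbp minus Arntl was 0.66, 0.36 and −1.12 in KO 1, KO 2 and KO 3, against −0.56, 0.07 and 0.59 in Control 1, Control 2 and Control 3. KO 3 stood lowest on this difference, and Control 1 came next. The matching values for Nr1d1 minus Arntl were 0.38, 0.21 and −1.20 in the KO arrays, against −0.06, 0.05 and 0.62 in the Control arrays. Control 1 departed from KO 3 here, since its Arntl and its Nr1d1 were both high. These differences were formed after the values were seen and carry no test.

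**Figure D4:**
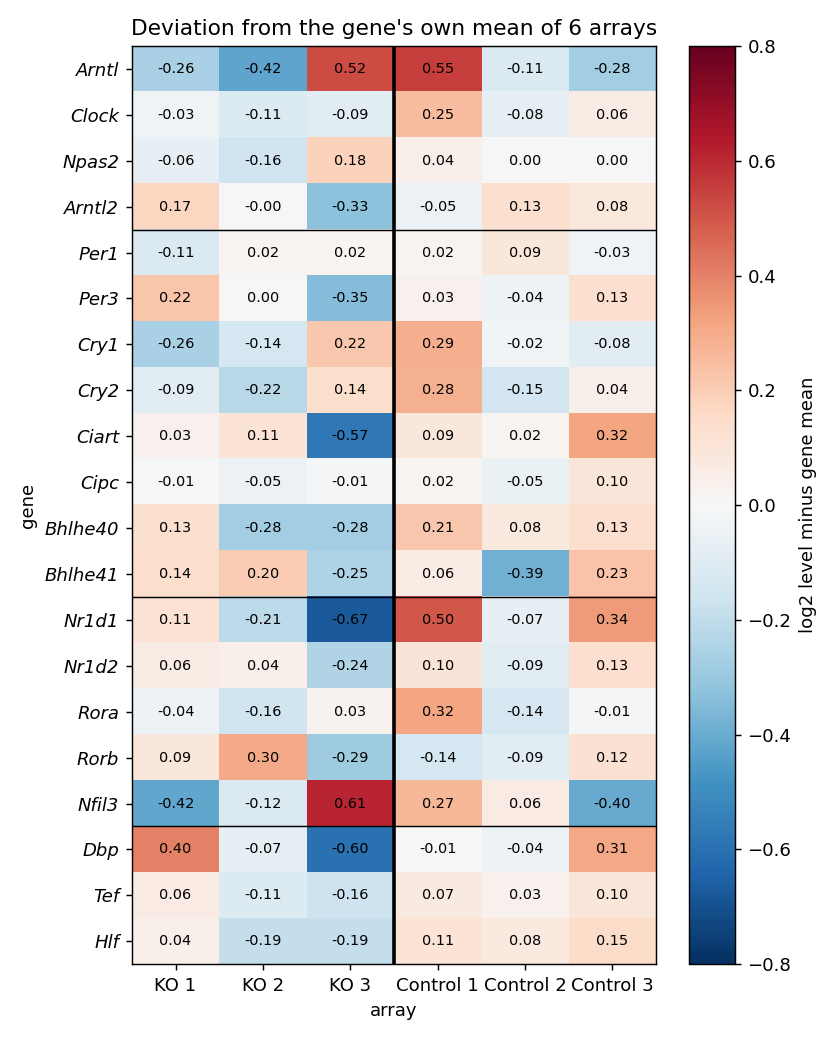
Deviation of each log2 level from the gene's own mean over the 6 arrays, with genes in rows (activators, then inhibitors, then nuclear receptors and Nfil3, then PAR bZIP factors) and arrays in columns, KO left of Control. KO 3 is high for Arntl (0.52) and Nfil3 (0.61) and low for Nr1d1 (−0.67), Dbp (−0.60) and Ciart (−0.57), and Control 1 is high for Arntl (0.55) and for Nr1d1 (0.50).

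Of 12 other clock transcription factors, 11 were measured, 0 were called (limma) and 0 had an unadjusted p under 0.05, with 3 higher and 8 lower means in KO muscle and a median log2 fold change of −0.11. Hlf, a PAR bZIP relative of DBP, was the 1 gene among them whose groups did not overlap, against 6.65% of all genes that were lower without overlap. It had log2 levels of 7.47, 7.24 and 7.23 in KO muscle, against 7.54, 7.51 and 7.57 in Control muscle (log2 fold change −0.23, interval −0.46 to 0.01, adjusted p = 0.632). Further factors are named after their values were seen. Nfil3, which represses the genes that DBP activates and carries the ROR core shown above, had log2 levels of 7.99, 8.29 and 9.02 in KO muscle, against 8.68, 8.47 and 8.01 in Control muscle. As with Arntl, KO 3 and Control 1 were its highest arrays, and its log2 fold change was 0.05 (interval −0.55 to 0.65). Ciart, a repressor of ARNTL and CLOCK, had log2 levels of 8.22, 8.30 and 7.62 in KO muscle, against 8.28, 8.21 and 8.50 in Control muscle, and KO 3 was its lowest array. Npas2 and Rorb, a relative of CLOCK and a brain-enriched ROR receptor, lay below the background level, so small differences in them could not be seen.

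Other genes encode proteins that modify clock factors or mark them for decay. Of 13 measured transcripts of kinases, ubiquitin ligases and partners, 0 were called (limma) and 1 had an unadjusted p under 0.05, where 8.04% of all genes did. Among them, 5 had a higher and 8 a lower mean in KO muscle, and the median log2 fold change was −0.04. Groups did not overlap in 2 of them, both higher in KO muscle, where 6.74% of all genes were higher without overlap. Prkaa1, a catalytic subunit of the energy sensor AMPK, which marks cryptochromes for decay, had log2 levels of 9.32, 9.20 and 9.12 in KO muscle, against 8.92, 8.77 and 9.04 in Control muscle (log2 fold change 0.30, interval 0.05 to 0.55, adjusted p = 0.534). Nono, an RNA-binding partner of PER proteins, had log2 levels of 9.30, 9.16 and 9.15 in KO muscle, against 9.02, 9.08 and 9.06 in Control muscle (log2 fold change 0.15, adjusted p = 0.769).

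Among 11 measured genes downstream of the clock, 0 were called (limma) and 3 had an unadjusted p under 0.05, where 8.04% of all genes did. Of the 3, Hk2 and Wee1 were higher in KO muscle and Nampt was lower. The groups overlapped in Wee1 (log2 fold change 0.29, adjusted p = 0.616, limma). Groups did not overlap in 2 that were higher and 1 that was lower in KO muscle, against 6.74% and 6.65% of all genes. The mean was higher in 6 and lower in 5, with a median log2 fold change of 0.12. Hexokinase 2 (Hk2), which traps glucose in the fibre, had log2 levels of 10.98, 11.12 and 11.14 in KO muscle, against 10.77, 10.89 and 10.82 in Control muscle. The groups did not overlap, at a log2 fold change of 0.25 (adjusted p = 0.558). The muscle glucose transporter Slc2a4 lay at 11.50, 11.46 and 11.40 in KO muscle, against 11.30, 11.34 and 11.33 in Control muscle, again without overlap (log2 fold change 0.13, adjusted p = 0.798). Nampt, the enzyme of NAD salvage whose gene ARNTL and CLOCK drive, lay at 9.995, 9.90 and 10.10 in KO muscle, against 10.33, 10.30 and 10.17 in Control muscle. Its log2 fold change was −0.27 (interval −0.50 to −0.03, adjusted p = 0.552), and no other measured output gene was lower without overlap.

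Nr1d1 was the only member whose values spanned over 1 on the log2 scale across the 6 arrays (1.17). The 3 genes with the most similar profile, by the root mean square difference of values centred on each gene's mean over 6 arrays, were Tnfsf10, a death receptor ligand (0.124), Amigo1, a transmembrane adhesion protein (0.129), and Plpp7 (0.130). Their log2 fold changes were −0.49, −0.42 and −0.51. In all 3, as in Nr1d1, KO 3 was the lowest array and Control 1 the highest. Because the 3 genes were chosen for the likeness of their values, these shared traits follow from the choice.

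Hormone, feeding and temperature signals reset clock genes, and genes that respond to them varied over the same arrays. Of 10 glucocorticoid-induced genes, 0 were called (limma) and 0 had an unadjusted p under 0.05, and their median deviation was −0.28, −0.17 and 0.41 in KO 1, KO 2 and KO 3, against 0.08, 0.30 and −0.30 in the Control arrays. The median was highest in KO 3 and next highest in Control 2, and single genes of the list differed from this order. Of 8 fasting-induced genes, 0 were called, 0 had an unadjusted p under 0.05 and 7 had a higher mean in KO muscle, with median deviations of 0.07, 0.25 and 0.34 in the KO arrays, against −0.51, 0.10 and −0.10 in the Control arrays. Txnip, an inhibitor of glucose uptake, was the gene of this list whose groups did not overlap (log2 fold change 0.29, adjusted p = 0.690). Of all genes, 6.74% were higher without overlap.

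Of 7 temperature-responsive genes, 0 were called (limma) and 2 had an unadjusted p under 0.05, where 8.04% of all genes did. Those were the inducible heat shock genes Hspa1a and Hspa1b, which were higher without overlap, as were 6.74% of all genes. Hspa1a lay at 7.50, 7.83 and 8.85 in KO muscle, against 7.36, 7.30 and 7.26 in Control muscle (log2 fold change 0.75, adjusted p = 0.560). Hspa1b lay at 6.95, 6.92 and 8.17 in KO muscle, against 6.71, 6.37 and 6.31 in Control muscle (log2 fold change 0.88, adjusted p = 0.504). These paralogs are nearly identical, so their probe sets may share signal. KO 3 was the highest array for both. The part of these signals in the clock values was not tested.

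Some marker lists of other cells, though not all, were low or high in KO 3. All 6 tendon markers had a lower mean in KO muscle (median log2 fold change −0.69), with 0 called (limma). An unadjusted p under 0.05 (limma) was reached by 4 of them, where 8.04% of all genes did. It was also reached by 2 fibre markers and 1 satellite cell marker, all lower in KO muscle, and by no marker of the other lists. The summed level of the tendon markers was 11.19, 11.13 and 10.10 in KO muscle, against 10.95, 11.69 and 11.54 in Control muscle, on the log2 scale. Fibro-adipogenic markers had a median log2 fold change of −0.06, with summed levels of 12.91, 12.72 and 12.24 in KO muscle, against 12.62, 12.75 and 12.70 in Control muscle. Both summed levels were lowest in KO 3. Adipocyte markers went the other way, with summed levels of 8.53, 8.25 and 9.14 in KO muscle, against 8.59, 9.20 and 8.89 in Control muscle, and KO 3 was the highest KO array. The summed fibre markers ran from 16.75 to 16.78 in KO and from 16.81 to 16.87 in Control muscle. The fibre markers Myh1, Acta1 and Mylpf, the tendon marker Fmod and the satellite cell marker Chodl were lower in KO muscle without overlap, with log2 fold changes of −0.49, −0.05, −0.46, −0.93 and −0.57, and none was called. Of all genes, 6.65% were lower without overlap. Medians of endothelial, smooth muscle, macrophage and Schwann cell markers lay between −0.005 and 0.011, those of satellite cell and adipocyte markers were −0.05 and −0.15, and of red blood cell markers 1 was measured (−0.11). Their part in the clock values was not tested.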

How the data were processed

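The deposited table held log2 probe set summaries of 6 arrays (3 KO, 3 Control; 41345 probe sets). The submitters' processing notes name RMA, oligo and limma and give neither versions nor order. The RMA method makes the arrays' distributions alike and compresses differences of dim genes. Probe sets with 1 symbol in GEO's platform annotation (23521) were kept, and the probe set with the highest mean stood for a gene. Each of the 9 measured members had 1 such probe set. Cry2 was also in a probe set annotated to several genes, which was not used.

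All 22180 genes were fitted with limma 3.58.1 in R 4.3.3 (lmFit, eBayes, group means, two-sided, Benjamini-Hochberg over all genes, threshold 0.05), without a filter on low values. The fit was tested on simulated data. Motifs were searched in RefSeq promoter windows with Python 3.11.15, and plots were drawn with matplotlib 3.10.9. The members and lists were chosen with earlier results of these data known. The named genes were the members, Map3k7, up to 4 genes of each other list whose groups did not overlap, and the 3 nearest profiles of a member spanning over 1 on the log2 scale. Nfil3, Ciart, Npas2, Rorb and Wee1 fall outside this rule: they were picked once their values had been seen. Same-numbered KO and Control arrays had correlations of 0.08, 0.21 and −0.07 between their deviations from group means, so the numbers were not taken as pairs. With 3 arrays a group, their number limits how small a difference can be measured. Scan dates were not used.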

Additional observations from a re-analysis of the deposited data

How the results depend on the processing

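No member was called under any of the alternatives run (quantile normalization, median centring, mean over probe sets, genes above the median level, intensity trend with robust prior, array weights, the replicate number as a block, and 1 array left out), with 0 of 9 in each. Under the 7 settings that keep all arrays, all 63 member values kept their sign, and the lowest adjusted p was 0.397 (limma). Many of these signs could not change. The mean over probe sets, the level filter, the intensity trend and the replicate block leave a member's log2 fold change as it was. Median centring shifts all genes by the same small amount. With 1 array left out, 5 of 54 changed sign: Arntl (range −0.40 to 0.14, 0.14 without Control 1 and 0.08 without KO 2), Per3 (−0.21 to 0.0704), Nr1d2 (−0.17 to 0.00106) and Dbp (−0.42 to 0.0799), the last 3 being positive without KO 3 alone. The cause was not tested. The members' median log2 fold change ran from −0.19 (without Control 2) to −0.07 (without Control 1), and that of Nr1d1 from −0.70 (without KO 1) to −0.30 (without KO 3). With the replicate block, Nr1d1 had an adjusted p of 0.499, the block changed no member's call, and 17 of all genes were called instead of 21. Over all genes, 53 were called among genes above the median level, where fewer genes were tested, 36 with the intensity trend and robust prior, and 2 (without KO 2) to 11 (without KO 3) with 1 array left out, where fewer samples enter. Low signal limits what can be said of Npas2 and Rorb, which lay below the background level.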
